A study of Mus musculus with 2 samples.

Results

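The neurotrophins and their receptors were described here by 6 genes of the mouse: the ligand genes Bdnf, Ntf3 and Ntf5 and the receptor genes Ntrk2, Ntrk3 and Ngfr. The genes were taken by name from the GENCODE M21 annotation of mm10, out of 21938 protein-coding genes, and the rule that defines them uses no measured value. DNase-seq marks open chromatin: DNase I cuts DNA that nucleosomes leave accessible, and places where many cut ends pile up are called as peaks. Short stretches that are spared from cutting, as happens where a protein sits on the DNA, are called as footprints.

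The tissue was hippocampus of male B6CASTF1/J mice aged 14 days, an F1 hybrid of C57BL/6J and CAST/EiJ, with no treatment named. It was taken as 2 biological replicates that form 1 group, with no second condition to compare. The labels speak of 3 males and give both replicates 1 donor identifier, so how far the replicates are separate animals cannot be read from them. The tissue label says a layer of the hippocampus without naming the layer, and the tissue holds neurons, glia and vessels together. In such a tissue, fewer cells with an open site and less cutting per cell cannot be told apart.

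Neurotrophins are secreted growth factors, made as longer precursors that proteases cut. The mature forms bind Trk receptor tyrosine kinases, which support survival, growth and synaptic strength, while the p75 receptor also binds the uncut precursors and can signal growth cone collapse or cell death. In the hippocampus, BDNF acting through TrkB is known for its part in synaptic plasticity, and Bdnf is transcribed from many alternative promoters, some of which respond to neuronal activity.

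The report rests on the longer of the deposited peak lists of each replicate, with 115072 peaks in replicate 1 and 95711 in replicate 2, and on 285181 and 244137 footprints. Each peak carries a value that the authors gave it, whose unit and scaling are not stated. The median peak stood at 0.594 in replicate 1 and 0.734 in replicate 2, so a value in replicate 2 that is somewhat higher is the rule. Over 69706 sites open in both replicates, the median ratio of replicate 2 to replicate 1 was 1.14, with 10% of sites below 0.812 and 10% above 1.46. Markers of hippocampal neurons were open at 6 of 6 promoters in both replicates, against 3 of 5 for astrocytes, 2 of 5 for the oligodendrocyte lineage, 2 of 4 for vascular cells, 3 of 4 for Schwann cells and 1 of 4 for liver. Among all protein-coding genes the share was 64.3%.

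Sequences of the sites on which the results turn come first, because they show where in each locus DNA was open and which bases the footprints covered. They were read from the GRCm38.p6 (mm10) reference of C57BL/6J as RefSeq gives it, so they are not the sequence of these hybrid animals. Each runs 5′ to 3′ on the strand of its gene and leaves out annotated exons. Capitals mark bases that lay in footprints of both replicates. The only exception is the sequence before Bdnf start site 4, where capitals mark matches to the letters TGACG or TCGTG on either strand. A footprint need not lie in a called peak. In the 6 loci, 195 of 233 footprints in replicate 1 and 141 of 175 in replicate 2 lay in a peak of their replicate.
Bdnf, before start site 4, chr2:109692301-109692435, plus strand: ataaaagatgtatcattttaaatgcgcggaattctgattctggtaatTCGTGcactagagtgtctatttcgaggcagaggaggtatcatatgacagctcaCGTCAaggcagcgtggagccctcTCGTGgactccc
Bdnf, before start site 6, chr2:109693263-109693562, plus strand: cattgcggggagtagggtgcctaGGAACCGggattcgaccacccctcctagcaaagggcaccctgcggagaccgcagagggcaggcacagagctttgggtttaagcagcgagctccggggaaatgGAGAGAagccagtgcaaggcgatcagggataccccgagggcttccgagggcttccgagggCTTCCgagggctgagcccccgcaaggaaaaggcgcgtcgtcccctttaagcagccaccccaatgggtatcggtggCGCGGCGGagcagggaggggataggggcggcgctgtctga
Bdnf, highest open site, chr2:109694921-109695180, plus strand: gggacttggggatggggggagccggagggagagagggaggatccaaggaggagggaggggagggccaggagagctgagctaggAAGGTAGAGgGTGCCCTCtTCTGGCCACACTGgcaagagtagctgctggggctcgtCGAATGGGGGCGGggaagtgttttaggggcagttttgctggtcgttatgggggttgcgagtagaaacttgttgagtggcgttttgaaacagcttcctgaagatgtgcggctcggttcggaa
Ntf3, highest open site, intronic, chr6:126106481-126106720, minus strand: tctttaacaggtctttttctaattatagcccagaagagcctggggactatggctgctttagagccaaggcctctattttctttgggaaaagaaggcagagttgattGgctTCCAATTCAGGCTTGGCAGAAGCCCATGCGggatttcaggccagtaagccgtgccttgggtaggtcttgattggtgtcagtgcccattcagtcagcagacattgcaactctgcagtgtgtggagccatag
Ntrk2, before start site 1, chr13:58806441-58806568, plus strand: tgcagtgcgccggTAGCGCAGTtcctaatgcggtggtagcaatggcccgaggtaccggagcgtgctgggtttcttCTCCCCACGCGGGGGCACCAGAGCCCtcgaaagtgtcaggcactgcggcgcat
Ntrk2, intronic footprint at chr13:59092852-59092873 with 4 bases on either side, plus strand: aaggcTTGGTTGCCATGGCAGCGAGCctcc
Ntrk3, upstream noncoding start, chr7:78718361-78718660, minus strand: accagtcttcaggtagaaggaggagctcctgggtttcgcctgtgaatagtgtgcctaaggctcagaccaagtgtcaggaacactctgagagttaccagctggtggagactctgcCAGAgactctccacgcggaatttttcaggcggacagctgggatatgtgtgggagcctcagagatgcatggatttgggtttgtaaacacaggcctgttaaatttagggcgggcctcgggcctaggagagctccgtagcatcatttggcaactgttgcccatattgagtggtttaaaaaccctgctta
Ntrk3, intronic footprint at chr7:78596095-78596120 with 2 bases on either side, minus strand: ttTGTGGCCGGTAGGTGGTGCTAGATGCta
Ngfr, intronic site, chr11:95586301-95586520, minus strand: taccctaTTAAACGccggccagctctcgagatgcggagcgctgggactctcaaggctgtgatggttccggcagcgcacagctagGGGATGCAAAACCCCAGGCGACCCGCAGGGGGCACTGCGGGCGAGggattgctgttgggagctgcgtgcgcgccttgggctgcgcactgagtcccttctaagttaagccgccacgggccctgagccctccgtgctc

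A promoter was taken as 1000 bp either side of any annotated start site. By that measure both replicates listed a promoter peak for Bdnf, Ntrk2, Ntrk3 and Ngfr, whereas Ntf3 had one in replicate 1 alone and Ntf5 had none. That is 4 of 6 genes, beside 64.3% of all protein-coding genes, a share near the background. In the shorter peak list Ngfr had no promoter peak in either replicate. The highest promoter peak of the 6 belonged to Ntrk2 in both replicates, followed by Bdnf in replicate 1 and, in replicate 2, by Ntrk3 and Bdnf at nearly the same value.

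**Figure D1:**
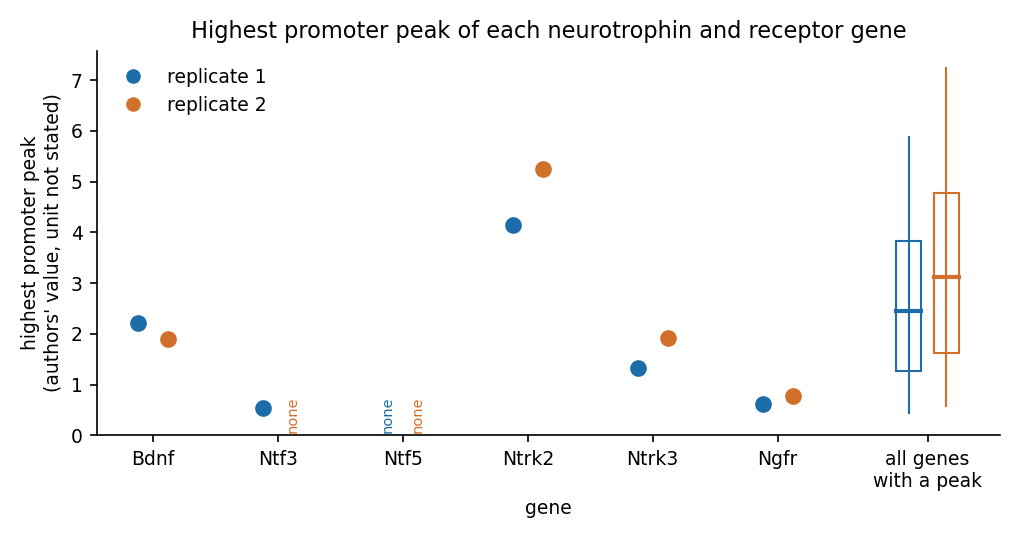
Highest promoter peak of each gene (authors' value, unit not stated) in replicate 1 and replicate 2, 1 point per replicate. At the right, boxes span the quartiles, thick lines the median and thin lines the 5% to 95% range over all protein-coding genes with a promoter peak in that replicate. Ntrk2 at 4.15 and 5.25 stands above the upper quartiles of 3.84 and 4.79, whereas Ngfr at 0.615 and 0.766 is below the lower quartiles of 1.27 and 1.63.

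Bdnf encodes brain-derived neurotrophic factor, the main ligand of TrkB. The gene spans chr2:109674700-109727007 on the plus strand, with 11 annotated transcripts. Their starts fall into 8 start sites once starts within 100 bp of each other are joined. They are numbered here by their order along the gene, since the annotation does not number the exons. Start sites 1 to 3 lie within 2.33 kb at the 5′ end, start sites 4 to 7 lie within 1.97 kb after a gap of 15.4 kb, and start site 8 lies a further 15.0 kb downstream.

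In all, 7 of the 8 Bdnf start sites had a peak within 1000 bp in both replicates, beside 41.9% of 63251 start sites of all protein-coding genes. Windows of neighbouring start sites overlap, so 1 peak can serve several of them. A peak within 100 bp of the start was present in both replicates at 3 of the 8, namely start sites 4, 6 and 7, beside 29.3% of all start sites. Start sites 1 and 3 had such a peak in replicate 2 alone.

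Start site 1 (position 109674700) stood highest at 0.679 in replicate 1 and 0.929 in replicate 2 within 1000 bp. Both values came from a site of 600 bp upstream of the start, and only replicate 2 had a peak over the start itself, at 0.391. The open chromatin near this most upstream start thus lay mainly before it. Of the 600 bp, 193 are annotated exon bases that precede Bdnf and so belong to another gene. DNase-seq does not tell which gene an open site serves.

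Start site 2 (109675897), which 3 transcripts share, reached 1.14 and 1.33. No peak came closer to this start than 144 bp in replicate 1 and 124 bp in replicate 2. The most strongly cut stretch lay downstream of it in both, at +369 and +359 bp, inside a site made up wholly of annotated exon bases.

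Start site 3 (109677032) reached 1.33 and 1.53 within 1000 bp. Its peaks began 109 and 89 bp from the start and ran on downstream into a joined stretch of 1320 bp, the longest site of the locus, where replicate 2 reached 1.87. The windows of start sites 2 and 3 also hold starts of the antisense gene Gm45346, and DNase-seq does not assign an open site to a strand.

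Start site 4 (109692436) had a peak over the start in both replicates, at 0.721 and 1.03. The 135 bases of its 340-bp site that precede the start are printed above. This start is known in the field as promoter IV, the best studied activity-dependent promoter of the gene, and a cyclic AMP response element (CRE) just before it is part of that background. The letters of a CRE half-site, TGACG, searched on both strands, began at -35 bp and appear as their reverse complement. In windows of the same 135 bp before all 63251 start sites, 10.3% held these letters. TCGTG, a core bound by Npas4 with Arnt2, occurred at 2 places in the window, and 7.49% of all such windows held it. A match of letters is not a bound site, and the footprints that both replicates share did not include one in the 340 bp. In replicate 1 alone, a footprint at chr2:109692421-109692428 covered the TCGTG nearer the start. In replicate 2 alone, one at chr2:109692405-109692415 overlapped the end of the CRE half-site letters.

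Start site 5 (109693027) had no peak within 100 bp, with the nearest at 134 bp in replicate 1 and 514 bp in replicate 2. Its values of 1.54 and 1.57 within 1000 bp came from the site that lies over start site 6. Start site 6 (109693563) is inside that site of 860 bp, again at 1.54 and 1.57. The length of the site came from replicate 1, whose peak ran from 18.461 to 19.321 kb beyond start site 1. In replicate 2 the peak was shorter, from 18.841 to 18.921 kb. Of the 8 start sites, start site 6 was the one with the highest peak directly over the start. The 300 bases before it hold a GC box (GGGCGG) and a CCAAT box, neither of them in a footprint of either replicate. The same 300 bases before all start sites were not searched, so these letters have no background of their own here.

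Start site 7 (109694409), used by 2 transcripts, had the highest value of the gene within 1000 bp, at 2.22 in replicate 1 and 1.90 in replicate 2 (2.06 ± 0.227, SD, n = 2). These values placed Bdnf at percentile 45.1 and 29.6 among genes with a promoter peak, in the lower to middle part of the range. The peak was not over the start: directly over it the values were 0.502 and 1.07, and the strongest cutting lay at +609 and +611 bp. That downstream site of 260 bp holds no exon base and was the only shared promoter site of the gene where replicate 1 was higher than replicate 2.

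The same 260-bp site held a footprint of 32 bp in replicate 1, a width reached by 2.36% of the footprints in that library. Replicate 2 had 3 shorter footprints over the same bases. The footprint contains the core motif of CTCF, an insulator protein, with at most 1 mismatch. Start site 8 (109709383) had no peak within 1000 bp in either replicate, and the nearest was 1778 and 1119 bp away. In sum, the 3 upstream and 4 middle start sites of Bdnf had a peak within 1000 bp in both replicates and the last one had none. Within 100 bp of the start, only start sites 4, 6 and 7 had a peak in both. Start sites 2 and 5 had none there in either replicate.

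**Figure D2:**
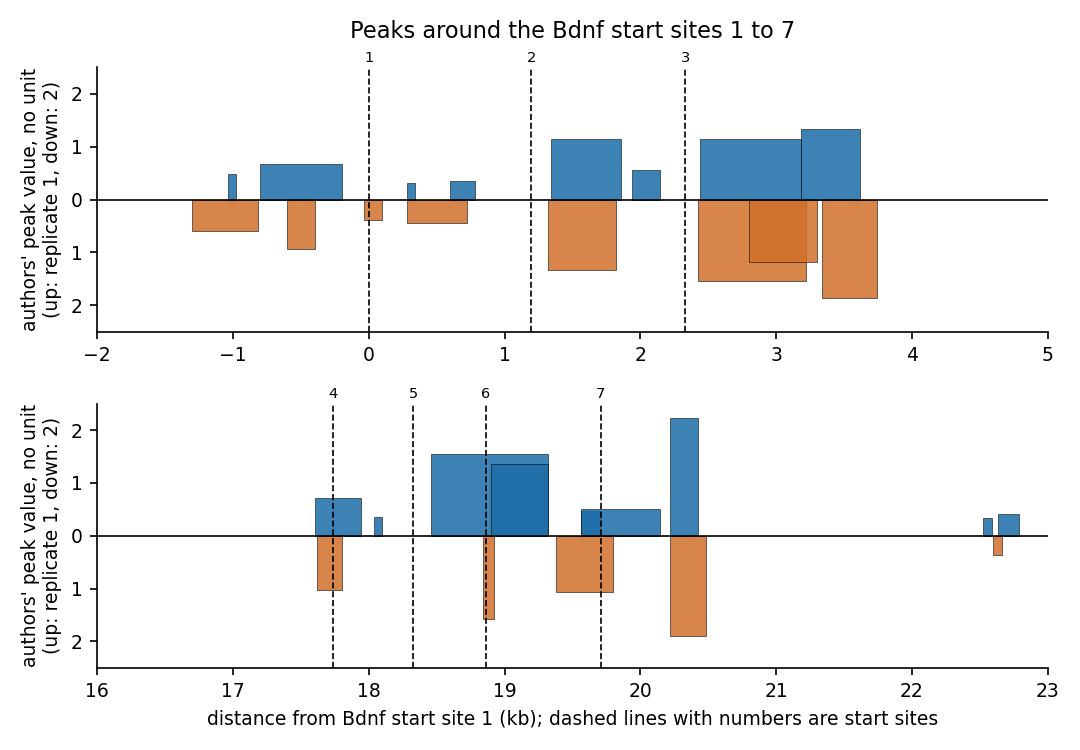
Peaks around Bdnf start sites 1 to 3 (upper panel) and 4 to 7 (lower panel) by distance from start site 1 in kb. Bars rise for replicate 1 and hang for replicate 2 to the authors' value, overlapping peaks of 1 list look darker, and dashed lines are start sites. The highest bars in replicate 1, at 2.22, lie beyond start site 7 rather than on it, with 1.90 in replicate 2 at the same place.

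Around the gene and 10 kb either side, Bdnf had 9 promoter sites open in both replicates but only 1 such site outside promoters, a weak intronic one at chr2:109697296-109697486 with 0.403 and 0.359. Here a site means a cluster of overlapping peaks of both replicates, shared if each replicate has a peak in it. The median over 9537 genes of 0.5 to 2 times its locus length was 1 shared site outside promoters, the same as in Bdnf. The locus held 49 footprints in replicate 1 and 48 in replicate 2, of which 36 and 43 were at promoters.

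Ntf3 encodes neurotrophin-3, the preferred ligand of TrkC, and spans chr6:126101412-126166910 on the minus strand. Its only promoter peak was in replicate 1 at 0.544, over the third start site (126164960), and the nearest peak of replicate 2 was 2971 bp away. A weak peak that both replicates shared lay at chr6:126167914-126168009, at 0.544 and 0.481. It began 1004 bp upstream of the first start site in replicate 1 and 1021 bp in replicate 2, just outside the window of 1000 bp.

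The highest site of the Ntf3 locus was intronic, at chr6:126106481-126106720, with 0.976 and 0.995. The replicates were almost equal there, and each had a long footprint of 32 and 34 bp in it. Its sequence, printed above, holds an NFI half-site (TTGGCA) and a CCAAT box inside the footprint. In all, 2 of 9 sites in the locus were shared, and 6 were present in replicate 1 alone.

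Ntf5 encodes neurotrophin-4, another ligand of TrkB, in a compact gene at chr7:45413695-45417179 on the plus strand. No peak of either replicate lay in the gene, and the nearest was 8355 bp from its first start site. The only site within 10 kb, at 1.15 and 1.74, lies at the promoter of the potassium channel gene Kcna7 (chr7:45405181-45405340). It carried a shared footprint of 35 bp in replicate 1 and 49 bp in replicate 2 with a CTCF core at 1 mismatch or fewer.

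Ntrk2 encodes TrkB, both the kinase receptor of neurons and a truncated form that astrocytes make in quantity. The gene spans chr13:58806569-59133970 on the plus strand. Its highest promoter peak stood at 4.15 in replicate 1 and 5.25 in replicate 2 (4.70 ± 0.777, SD, n = 2), percentile 79.4 and 80.4. The ratio of 1.26 between the replicates lay within the range of most shared sites.

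This site of 440 bp lies over start site 1, with the strongest cutting at -3 and -8 bp. The −log10 of the lowest false discovery rate of the cut rate was 30.2 and 39.6, the highest of any shared site in the 6 loci. Right before the start, footprints of 26 bp in replicate 1 and 31 bp in replicate 2 shared their first base, as the capitals of the printed sequence show.

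Further promoter sites of Ntrk2 were at 2.42 and 2.62 (chr13:58807501-58808080) and at 1.56 and 1.88 (chr13:58808281-58808880). Values therefore fell from site to site in the direction of transcription in both replicates. The 5 protein-coding start sites of the gene, all within this stretch, were open in both, whereas the 2 that begin only transcripts of other kinds had no peak within 1000 bp. Over all start sites of protein-coding genes, 41.9% had a peak within 1000 bp in both.

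Outside promoters Ntrk2 had 9 shared sites, of which 8 were intronic. Genes of like locus length (1297) had a median of 6, which puts Ntrk2 at percentile 71.8. The highest was at chr13:59073661-59074220 in an intron, at 2.38 and 2.93. It was about as high as the second promoter site, and footprints of 33 and 27 bp overlapped in it.

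A second intronic site at chr13:59092761-59093200 reached 1.87 and 1.56, higher in replicate 1. Its footprints of 22 and 25 bp hold an RFX half-site (GTTGCCA), shown in the sequence above. RFX factors are known for genes of cilia. The third highest, at chr13:58809861-58810440, stood at 1.34 and 1.57. Replicate 1 had 15 more sites outside promoters that replicate 2 lacked, and replicate 2 had 3 of its own. Footprints numbered 94 in replicate 1 and 46 in replicate 2, the widest gap between the replicates among the genes with over 10 footprints.

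Ntrk3 encodes TrkC, the receptor of neurotrophin-3, and spans 562 kb at chr7:78175959-78738012 on the minus strand. It has 20 annotated transcripts and 15 start sites, of which 4 begin a protein-coding transcript. Its highest promoter value was 1.33 in replicate 1 and 1.92 in replicate 2 (1.63 ± 0.420, SD, n = 2), percentile 26.1 and 30.1. These values came from different places.

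In replicate 2 the highest peak lay in the cluster of start sites 6 to 9, of which 3 are coding, in a site at chr7:78577921-78578420 with 1.27 and 1.92. Next to it lay shared sites of 1.26 and 1.68, 0.721 and 1.07, and 0.735 and 0.929. Each of the 4 sites was higher in replicate 2. Windows of start sites 6 to 8 also hold starts of Gm9885.

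In replicate 1 the highest promoter peak lay far upstream of that cluster, over start site 2 (78718220), from which 1 processed transcript without a coding sequence is annotated. That site, chr7:78718181-78718700, stood at 1.33 and 1.34. The −log10 of its lowest false discovery rate was 15.9 and 5.95, while the site of the coding cluster had 4.37 and 6.81. Within each replicate both measures put the same site first, the noncoding start in replicate 1 and the coding cluster in replicate 2.

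A peak in replicate 2 alone (0.546) lay within 1000 bp of start sites 3 and 4, the latter coding. In total 5 of the 15 start sites of Ntrk3 (33.3%) were open in both replicates, beside 41.9% of all start sites of protein-coding genes. Of its 4 coding ones 3 were open, a count that has no background of its own here.

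Outside promoters Ntrk3 had 14 shared sites, the most of the 6 genes, of which 13 lay outside the exons of Ntrk3 itself. One of the 13, chr7:78579901-78580140 at 1.39 and 0.864, lies wholly in annotated exon of the antisense gene Gm9885. The median of 625 genes of like locus length was 8, and Ntrk3 was at percentile 77.1. The highest were chr7:78595981-78596200 (1.499 and 1.63), chr7:78390061-78390340 (1.65 and 1.44) and chr7:78568981-78569220 (1.47 and 1.53). These intronic values were in the range of the promoter sites of the gene. At the first of them, the footprints of 26 and 27 bp differed by 1 base in position. A further site of 1.18 and 1.26 overlaps an exon near the 3′ end of the gene, at chr7:78190981-78191360.

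Ngfr encodes the p75 neurotrophin receptor and spans chr11:95568818-95587735 on the minus strand, with 1 transcript. Its promoter peak was weak, at 0.615 in replicate 1 and 0.766 in replicate 2 (0.691 ± 0.107, SD, n = 2), percentile 9.17 and 9.05. In replicate 1 it covered the start, and in replicate 2 it began 28 bp downstream of it.

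The highest site of Ngfr lay in an intron at chr11:95586301-95586520, its centre 1324 bp downstream of the start, with 2.05 and 2.54. In each replicate it stood over 3 times as high as the promoter peak of the gene. It contained footprints of 45 and 47 bp, with all of the first inside the second. Only 0.467% of the footprints in replicate 1 and 0.309% in replicate 2 were as wide, and the covered bases, in capitals above, hold a CTCF core with at most 1 mismatch.

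The other shared sites of Ngfr stood at 0.686 and 0.848 in an intron and at 0.728 and 0.734 over an exon. With 3 shared sites outside the promoter, Ngfr was at percentile 80.4 of 17529 genes of like locus length, whose median was 1. In the brain p75 is carried by, among others, cholinergic axons from the basal forebrain, whose nuclei lie elsewhere, and in nerve it is made by Schwann cells. Promoters of 3 of the 4 Schwann cell markers were open in both, with Pmp2 in neither. Over all protein-coding genes the share was 64.3%, so this count is near the background. The part of Schwann cells in the Ngfr values was not tested.

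**Figure D3:**
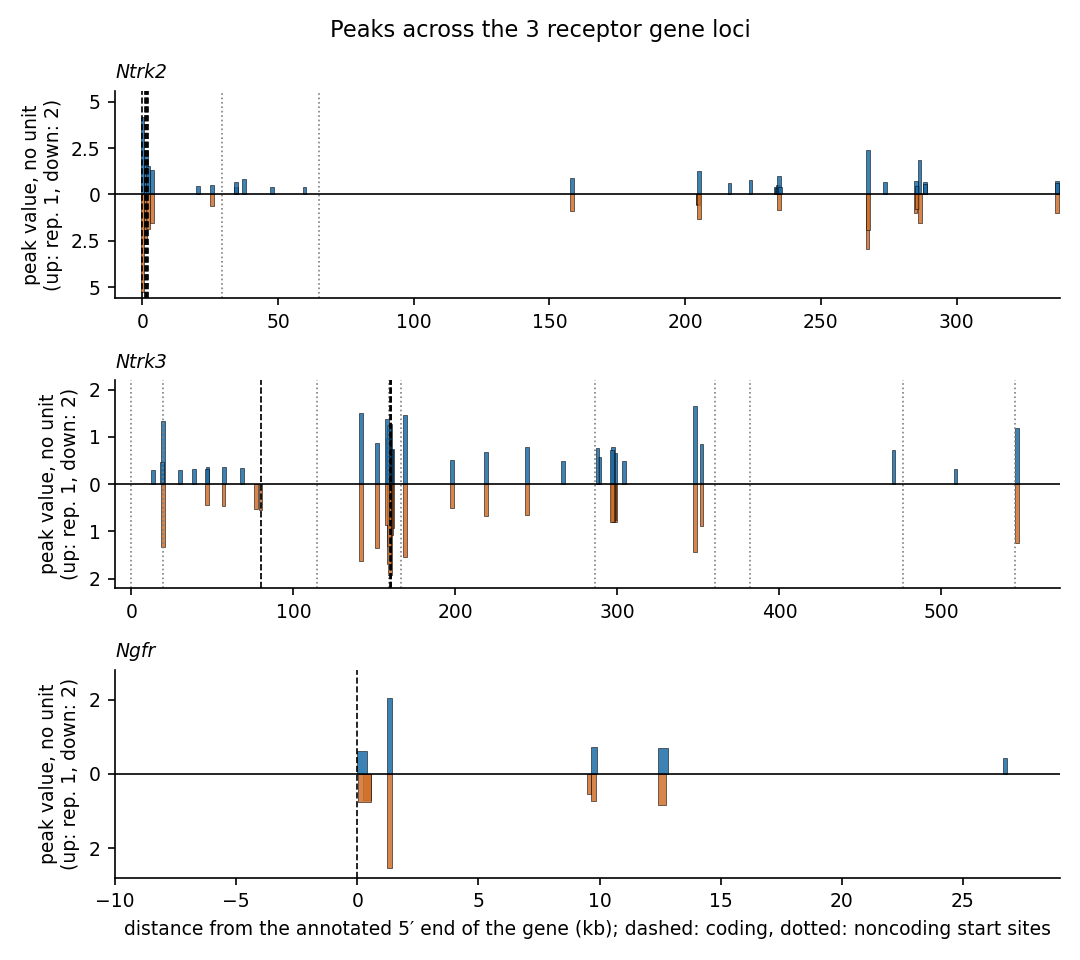
Peaks across the loci of Ntrk2, Ntrk3 and Ngfr by distance from the 5′ end of the gene in kb, with bars up for replicate 1 and down for replicate 2 to the authors' value (unit not stated). Bars are widened to 0.4% of the axis to be seen, dashed lines are coding and dotted lines other start sites. In Ngfr the bars of 2.05 and 2.54 stand inside the gene, while in Ntrk2 the highest bars, partly behind the dashed lines, are at the start.

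In all 6 loci, at least 1 site outside the gene's own promoters was shared, beside 65.9% of all protein-coding genes. For Ntf5 this was the Kcna7 promoter. The share is over genes of any length, and the number of such sites rises with length. Among genes of like locus length, Bdnf, Ntf3 and Ntf5 were at percentiles 26.4, 46.8 and 43.4. Ntrk2, Ntrk3 and Ngfr were at 71.8, 77.1 and 80.4. Of 71 sites outside the gene's own promoters in the loci, 30 were shared, 34 were present in replicate 1 alone and 7 in replicate 2 alone. By the exons of the member gene itself, 25 of the 30 were intronic, 2 overlapped exons and 2 lay in flanks. Of the promoter sites, 18 of 25 were shared. Shares in the genome are not given apart for promoter and other sites, so these 2 counts have no background of their own.

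Over promoters and the rest, 48 of 96 sites (50%) were shared, beside 53.9% of 129257 sites in the genome. The median ratio of replicate 2 to replicate 1 over the 48 was 1.19, from 0.624 at the Ntrk3 site in the Gm9885 exon to 2.13 at the site over Bdnf start site 7. Footprints were shared less: 44 of 233 in replicate 1 (18.9%) had at least 50% of their length covered in replicate 2, beside 32.7% in the genome. From replicate 2, the figure was 54 of 175 (30.9%), beside 38.4%.

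The start sites differed in CpG content, measured as the observed over expected CpG ratio within 500 bp either side and sorted into 10 deciles over all start sites. In the genome, 97.6% of start sites in the top decile had a peak within 1000 bp in both replicates, and 4.21% in the lowest. The 7 open Bdnf start sites were in deciles 7 and 8, of which 61.7% and 88.9% were open, and start site 8 was in decile 3, of which 9.33% were open. Thus each of the 8 went with the majority of its decile.

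Exceptions lay in other genes. The third start site of Ntf3 was in decile 9, where 95% of start sites were open in both replicates, and it was open in 1. Both start sites of Ntf5 and the other Ntf3 start sites were in decile 7 and had no peak. Conversely, start site 2 of Ntrk3 was open in both replicates in decile 4, where 12.4% were.

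**Figure D4:**
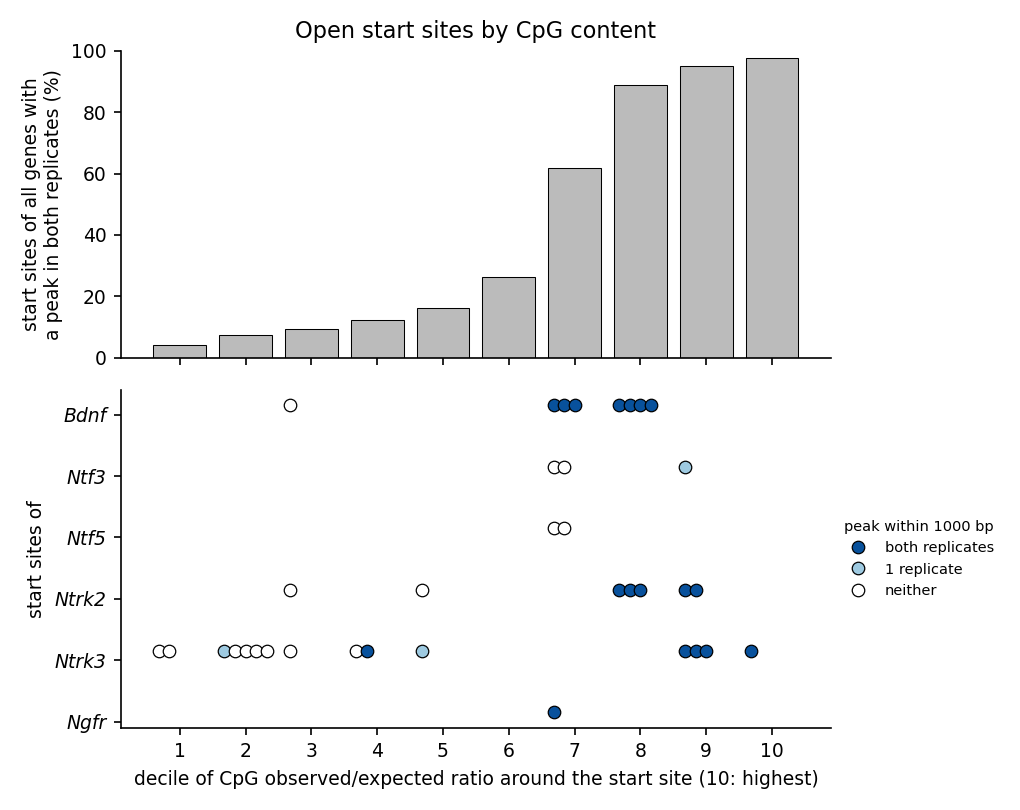
Upper panel, percent of start sites of all protein-coding genes with a peak within 1000 bp in both replicates, per decile of CpG observed/expected ratio. Lower panel, each start site of the 6 genes as a circle at its decile, dark for a peak in both replicates, light for 1 and open for neither, spread sideways only to be seen. Bdnf start sites lie at deciles 7 and 8 when open and at 3 when not, and Ntrk3 has 1 dark circle at decile 4.

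Peaks of the 6 loci were searched for 17 motifs on both strands, within 100 bp either side of the peak centres, and the same was done for all peaks. An NFI half-site was in 24.2% of 95 peak windows in replicate 1 and 21.5% of 65 in replicate 2, beside 17.2% and 16.1% of all peaks. Within 50 bp either side of the centres it was in 16.8% and 7.69%, beside 9.78% and 9.11%, so the direction turned in replicate 2. Within 100 bp a GC box was in 18.9% and 23.1%, beside 15.4% and 18.2%. Within 50 bp it was in 9.47% and 18.5%, beside 9.48% and 11.4%, above all peaks in replicate 2 alone. A CCAAT box was within 100 bp in 21.1% and 18.5%, beside 24.1% and 22.9%. Within 50 bp it was in 10.5% and 9.23%, beside 13.2% and 12.4%, again below all peaks in both replicates. A CRE half-site was within 100 bp in 8.42% and 13.8%, beside 11.6% and 12.6%. Within 50 bp it was in 3.16% and 6.15%, beside 6.53% and 7.03%, below all peaks in both replicates. The Npas4/Arnt2 letters TCGTG were within 100 bp in 6.32% and 6.15%, beside 11.8% and 12.7%. AP-1 letters (TGANTCA) were there in 3.16% and 1.54%, beside 6.56% and 5.79%. Windows of overlapping peaks share bases, so they are not independent.

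The full CRE (TGACGTCA) was in none of the windows, beside 0.610% and 0.713% of all. A count of 0 allows up to 3.16% of 95 and 4.62% of 65 windows, by counting error only. The exact CTCF core was in none either, beside 4.35% and 4.46%. With up to 1 mismatch it was in 7.37% and 13.8%, beside 13.7% in each replicate.

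Of the shared footprints of 20 bp or more, 4 of 10 in replicate 1 and 3 of 10 in replicate 2 held that core with up to 1 mismatch, beside 32.2% and 31.5% of all such footprints. These shares were near the background. In replicate 1 these 4 were the Bdnf site beyond start site 7, the Ngfr intron, the Kcna7 promoter and the highest intronic site of Ntrk2. In replicate 2 the 3 were the Ngfr intron, the Kcna7 promoter and an intronic footprint of Ntrk3 at chr7:78569086-78569110. Only the Ngfr intron and the Kcna7 promoter were thus on both lists.

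Other genes of the pathway were taken from fixed lists, of which 5 are given here. Their promoter values stand beside a median of 2.87 over all 14116 genes open at a promoter in both replicates, and their counts beside the 64.3% of all protein-coding genes that were so. The genes named as highest are those with the highest mean of the replicates, and the order can differ within a replicate.

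All 8 sorting receptors and p75 co-receptors had a promoter peak in both. By the mean they were led by Lingo1, a partner of p75 in the Nogo receptor complex, at 3.85 and 3.96, and by Sort1, sortilin, which binds proneurotrophins, at 2.41 and 3.26. The median promoter value of the group was 2.14, below the 2.87 over all genes open in both. As a group they had a median of 8.5 shared sites outside promoters per gene, beside 1 over all genes, with a range from 0 to 26. This count rises with gene length, which was not matched here.

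Of the adaptors and effectors of Trk receptors, 16 of 16 were open in both, with a median of 3.71. The highest by the mean were the SH2 adaptor gene Crkl at 5.31 and 5.73 and the Ras activator gene Sos1 at 4.89 and 5.67. Of 8 partners of p75 inside the cell, all had a peak in both, with a median of 2.30, below that of all genes. The highest by the mean were Arhgdia, whose product binds p75, at 3.02 and 4.29 and the kinase gene Ripk2 at 3.52 and 3.77. Bex1 was the lowest, at 0.247 and 0.359.

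Proteases that can cut proneurotrophins were the list with closed genes. The proprotein convertase gene Pcsk5 (1.57 and 2.33) and Plat (1.97 and 1.81), which encodes tissue plasminogen activator, were the highest by the mean of the 6 of 9 that were open. The median of these 6 was 1.31, below that of all genes. Plg, the gene of plasminogen, and the matrix metalloprotease genes Mmp3 and Mmp7 had no promoter peak in either replicate.

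The 8 regulators known to act on Bdnf transcription were all open in both, with a median of 3.997. Creb1, whose product binds the CRE, stood at 6.39 and 8.16, and Carf, the calcium response factor, at 4.97 and 6.36. Both were well above the promoter values of Bdnf itself.

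Genes most like Bdnf, Ntrk2 and Ntrk3 were found by the distance over 4 measures (the highest promoter value in each replicate, the number of shared sites outside promoters and locus length) among 14116 genes. For Bdnf they were Hepacam2 (2.14 and 1.92), Aplf (2.00 and 1.79) and Fanca (2.16 and 2.34), each with 1 shared site outside promoters. For Ntrk2 they were Ehbp1 (4.13 and 5.55), Gm45062 (4.35 and 5.48) and Fmn1 (4.36 and 4.65), with 9, 8 and 9 such sites. For Ntrk3 they were Kcnq5 (1.40 and 1.82), Pard3 (1.25 and 1.82) and Ryr3 (1.56 and 2.01), with 13, 16 and 15.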

How the data were processed

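DNase-seq was done on 2 biological replicates of 1 group. The signal value per peak was deposited by the authors in narrowPeak form with no unit or scaling stated, and peaks were called per replicate on mm10, per the file headers. The p-value columns the authors deposited hold false discovery rates: of the cut rate, listed under 0.05, and 0.01 for every footprint. For the aligner and the caller, the names were not given in the sources used here. Read depth is unknown, so no interval rests on it.

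The longer peak list of each replicate was used. Peaks and footprints overlapping a gene (GENCODE M21) and 10 kb either side were taken, with promoters 1000 bp either side of any start. Overlapping peaks of both replicates (at least 1 bp) were joined into sites. A footprint was shared if footprints of the other replicate covered 50% of it. Replicates show only the spread between these samples, which may be technical. With 1 group no test was made, and values are compared as descriptions. Python 3.11.15 and numpy 2.4.6 were used, and the counting functions were tested on simulated data (6 of 6 quantities recovered over 2000 genes).

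Members, lists, motifs and the rules for named genes and sites were chosen with earlier results of these data known. Named were all 6 members, their 3 highest shared sites outside promoters where there were as many, the 2 highest genes of each pathway list given with those closed or open in 1 replicate, and the 3 nearest genes by 4 measures. The alternatives were the shorter list, other windows, flanks and overlaps, and each replicate alone. A pathway list that the rule also takes is not reported here.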

Additional observations from a re-analysis of the deposited data

How the results depend on the processing

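The number of the 6 genes open at a promoter in both replicates (4) stayed between 3 and 5, and that of open Bdnf start sites (7 of 8) between 6 and 8, under each alternative run, the shorter list, other windows and peaks at or above the median value included. In the shorter list Ngfr had no promoter peak, and with windows of 2500 bp Ntf3 had one in both replicates (0.806 and 0.481), Ngfr rose to 2.05 and 2.54, and Bdnf start site 8 counted as open. Without replicate 1 or replicate 2, 4 and 5 genes and 7 and 7 Bdnf start sites were counted. The 30 shared sites outside promoters became 14 in the shorter list, 57 with 50 kb either side and 19 at 50% reciprocal overlap, and 37 to 64 with 1 replicate left out. The 44 shared footprints became 103 with 50 kb either side and 175 to 233 with 1 replicate left out, by construction, since sharing is then not asked for. Alternatives chosen after seeing the data were peaks at or above the median value (22 shared sites outside promoters), joined peaks (29) and the CTCF core with 1 mismatch. No paired analysis was possible because there is 1 group and no test. Read depth is unknown.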
